A study of Arabidopsis thaliana with 4 samples.

Results

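Transcripts of 41 core and linker histone genes were followed in root tips of Arabidopsis thaliana exposed to narciclasine, an alkaloid of Amaryllidaceae plants that inhibits protein synthesis at the ribosome. The genes were chosen by locus code from the 33602 identifiers of the deposited table, and all 41 were found there. They comprised 8 H4 genes, 5 H3.1 genes, 3 H3.3 genes, 10 H2B genes, 4 canonical H2A genes, 2 H2A.X genes, 3 H2A.W genes, 3 H2A.Z genes and 3 genes of linker histone H1. Genes for which the RefSeq annotation gives no symbol are named here by class and locus code. Wild-type Col-0 seedlings, 5 days old, were moved to plates with 0.5 µM narciclasine or without it, and RNA was taken from the excised terminal 3 mm of the root after 2 or 12 h. The 4 groups, control 2 h, narciclasine 2 h, control 12 h and narciclasine 12 h, held 1 library each, so differences between them cannot be set against a spread between replicates, and what follows is a description of 4 libraries. In RNA from whole root tips, fewer cells of a type and less RNA per cell cannot be told apart.

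Histones package DNA into nucleosomes, and a dividing cell needs a new set of them each time it copies its genome. H3.1, H4 and the canonical H2A and H2B proteins are made chiefly during DNA synthesis and are laid down behind the replication fork, whereas H3.3 is deposited on transcribed genes throughout the cell cycle. Among the H2A variants, H2A.X is phosphorylated at DNA breaks, H2A.W marks heterochromatin, H2A.Z sits at the start and over the body of responsive genes, and H1 binds the linker DNA between nucleosomes. In plants these transcripts are polyadenylated, and replication-linked histone promoters are known for short motifs that include the octamer CGCGGATC and the hexamer ACGTCA.

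The 250 bases upstream of the annotated gene start were read from RefSeq (build TAIR10.1) for every member. The octamer, searched as CGCGGATC on both strands, was present in 10 of the 41 windows (24.4%) against 37 of the 26711 windows of all protein-coding genes in the table (0.139%). It was found upstream of 3 of 5 H3.1 genes, 2 of 8 H4 genes, 2 of 4 canonical H2A genes and 1 gene each of H3.3, H2A.W and H1, and in none of the H2B, H2A.X and H2A.Z windows. Windows of 5 genes are printed 5′ to 3′ on the strand of the gene, with the octamer in capitals, because they set genes that were lower at 12 h beside genes of related classes that were not. They are those of H3.1 gene AT1G09200 (chr1:2972335-2972584, minus strand), of the H2A.W gene HTA6, AT5G59870 (chr5:24116221-24116470, minus strand), of H3.3 gene AT5G10980 (chr5:3473571-3473820, minus strand) and of H4 genes AT3G45930 (chr3:16883066-16883315, plus strand) and AT3G46320 (chr3:17020429-17020678, minus strand).
AT1G09200: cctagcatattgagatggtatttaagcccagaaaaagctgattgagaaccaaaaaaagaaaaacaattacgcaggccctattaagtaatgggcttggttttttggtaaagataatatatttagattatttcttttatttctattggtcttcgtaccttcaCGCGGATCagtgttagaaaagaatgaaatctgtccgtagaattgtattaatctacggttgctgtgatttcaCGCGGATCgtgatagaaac
AT5G59870: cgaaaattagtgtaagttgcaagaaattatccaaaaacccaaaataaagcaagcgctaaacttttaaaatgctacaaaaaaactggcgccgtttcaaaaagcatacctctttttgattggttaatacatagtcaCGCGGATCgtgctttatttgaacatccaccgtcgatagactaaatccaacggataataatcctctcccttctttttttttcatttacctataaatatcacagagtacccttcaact
AT5G10980: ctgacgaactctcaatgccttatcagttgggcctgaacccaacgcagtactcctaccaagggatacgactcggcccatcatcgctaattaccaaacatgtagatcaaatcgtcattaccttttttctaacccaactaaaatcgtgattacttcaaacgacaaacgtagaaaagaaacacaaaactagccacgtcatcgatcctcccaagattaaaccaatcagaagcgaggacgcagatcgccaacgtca
AT3G45930: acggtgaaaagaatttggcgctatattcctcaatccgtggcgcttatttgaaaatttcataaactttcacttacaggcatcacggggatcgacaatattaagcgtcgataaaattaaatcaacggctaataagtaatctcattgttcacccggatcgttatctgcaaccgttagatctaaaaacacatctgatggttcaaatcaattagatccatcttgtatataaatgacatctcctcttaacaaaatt
AT3G46320: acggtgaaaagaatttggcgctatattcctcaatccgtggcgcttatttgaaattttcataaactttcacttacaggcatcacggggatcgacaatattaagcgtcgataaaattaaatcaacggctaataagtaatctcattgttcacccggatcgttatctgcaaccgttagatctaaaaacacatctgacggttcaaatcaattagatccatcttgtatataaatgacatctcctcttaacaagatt

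The H3.1 window held 2 octamers, whose first bases lay 90 and 19 bases before the gene start, and the HTA6 window held 1, at 116 bases. The windows of H3.3 gene AT5G10980 and of both H4 genes held none. The 2 H4 windows were equal at 247 of 250 bases, compared position by position with no gaps. The hexamer, ACGTCA on either strand, was present upstream of 8 of 10 H2B genes, 2 of 5 H3.1 genes and 1 H3.3 gene, AT5G10980, and in 7.72% of all windows. Sites for E2F factors, searched on both strands as TTTCCCGC, TTTGGCGC, TTTGCCGC or TTTCGCGC, were present in 3 of 41 windows and 1.41% of all windows. The 3 were those of H4 genes AT3G45930 and AT3G46320 and of HTB2, and none of them also held the octamer.

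Library sizes recovered from the deposited values ran from 11880278 to 14724075 reads. Levels are given as RPKM, reads scaled to gene length and library size, which allows genes of different length to be set side by side. Ratios are of reads scaled between libraries, and a range after a ratio is its exact 95% counting interval, which covers counting error only. Genes were counted as higher or lower from a 2-fold ratio upwards, if 1 lay outside that interval. Of the table, 19430 genes with at least 1 CPM (reads scaled to library size) in at least 1 library were compared, the 41 histone genes among them.

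At 2 h most histone transcripts stood moderately above control. Narciclasine 2 h exceeded control 2 h in 37 of 41 genes, with a median log2 ratio of 0.59 (1.502-fold) against -0.003 over all genes compared, 49.7% of which lay above 0. The counting interval excluded 1 for 34 of the genes above control and for 3 below it, all 3 of them H2A.Z genes. The share of all genes with such an interval was not computed. The change was smaller than the threshold for most, since 27 genes lay between 1.25-fold and 2-fold, and 3 of 41 were counted as higher, where 4.75% of all genes were. No member was counted as lower, against 2.1% of all genes. The 3 were H3.1 gene AT3G27360, H2B gene AT3G09480 and the H2A.X gene GAMMA-H2AX (AT1G54690). Together the 41 genes took 0.328% of the reads of control 2 h and 0.468% of those of narciclasine 2 h.

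At 12 h the classes parted. Of the 41 genes 9 were counted as lower, against 16.6% of all genes, and 5 as higher, against 11.6% of all genes. The count of 5 is close to its share over all genes, and the count of 9 is not far above its own. The 9 were all 5 H3.1 genes, H4 genes AT3G46320 and AT5G59690, HTA6 and the H2A.Z gene HTA11. The 5 higher genes were H3.3 gene AT5G10980, H2B gene AT3G09480, the canonical H2A gene RAT5 (AT5G54640), GAMMA-H2AX and the H1 gene HIS1-3. The median log2 ratio over the 41 genes was -0.16, with 17 above and 24 below 0, against -0.04 over all genes compared. The summed reads of the 41 genes were 1.16-fold higher (1.15 to 1.18), opposite in direction to the median. Counting intervals that excluded 1 put 16 genes above control at 2 h and below it at 12 h, 12 above at both times and 3 below at both. This rule has no fold threshold, and its shares over all genes were not computed, so how unusual these counts are is not known.

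**Figure D1:**
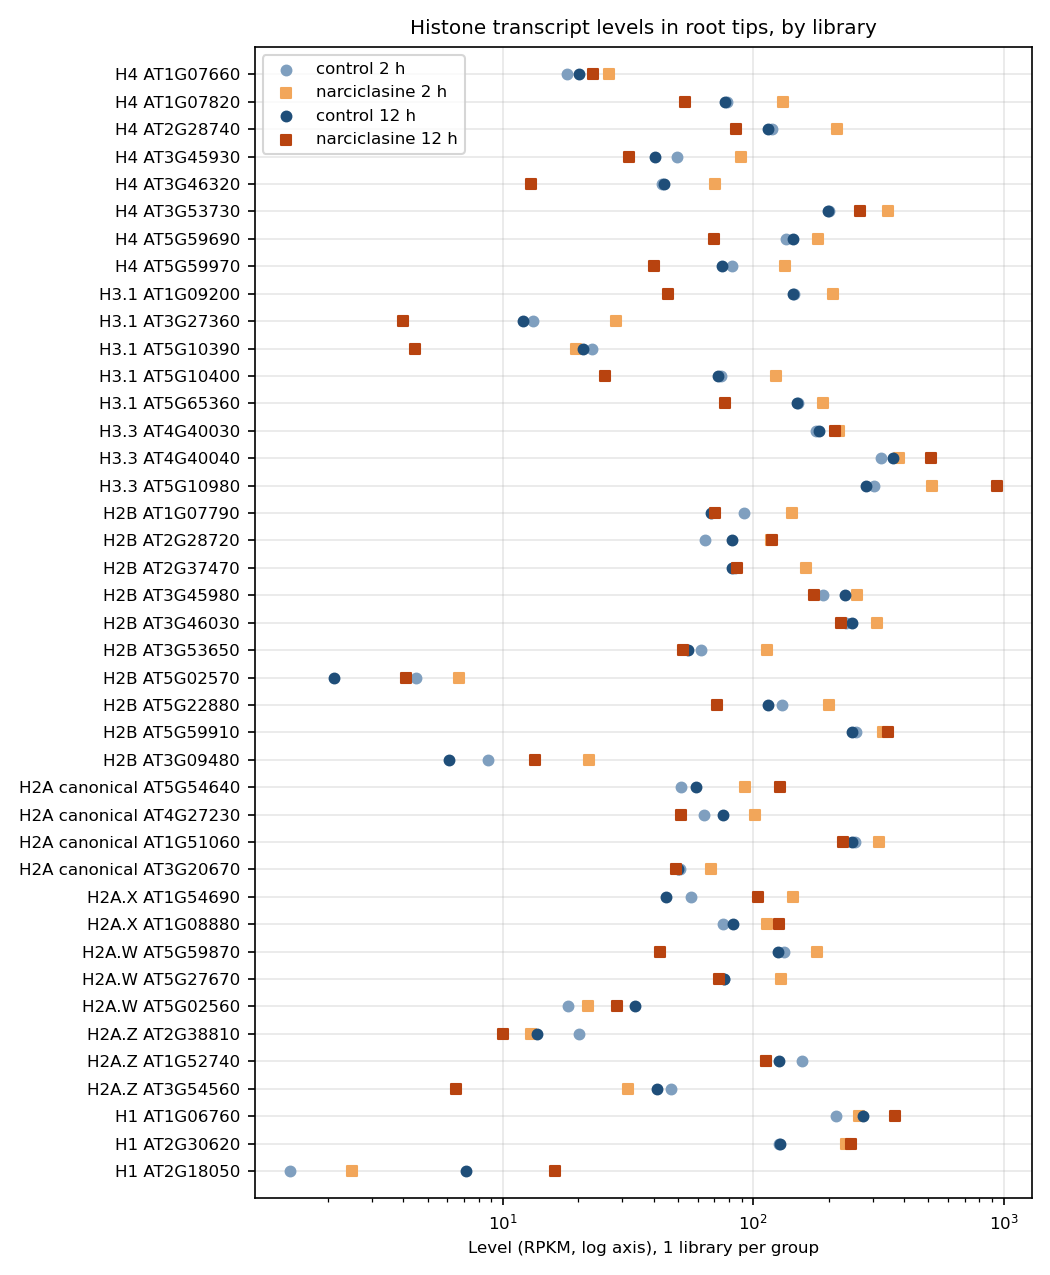
RPKM (log axis) of each of the 41 histone genes in the 4 libraries, 1 point per library, with circles for control and squares for narciclasine. The H3.1 genes lie lowest in narciclasine 12 h, at 4.00 to 77.0 RPKM, and H3.3 gene AT5G10980 reaches 939 RPKM there.

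**Figure D2:**
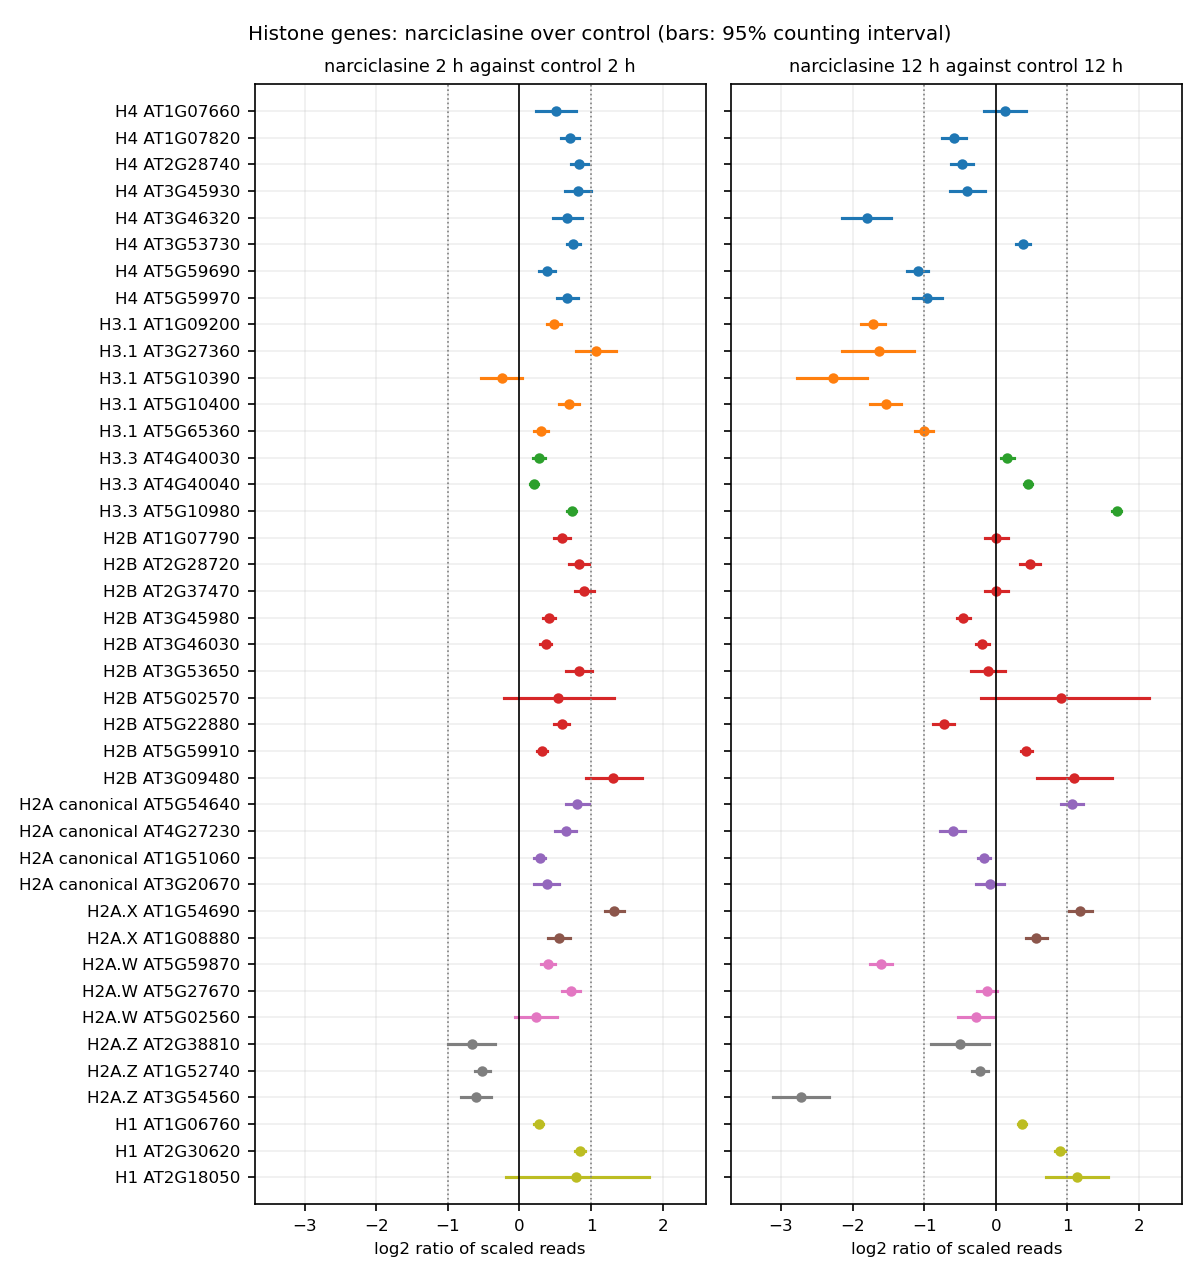
log2 ratio of scaled reads, narciclasine over control of the same time, for each gene at 2 h (left) and 12 h (right), coloured by class, with 95% counting intervals as bars and dotted lines at 2-fold. At 2 h 37 of 41 points lie to the right of 0, and at 12 h all 5 H3.1 points lie at or beyond 2-fold on the left.

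H3.1 was the class with every gene lower at 12 h. The gene with the highest control level, AT5G65360, stood at 150.5 RPKM in control 2 h, 190 in narciclasine 2 h, 149 in control 12 h and 77.0 in narciclasine 12 h. The second, AT1G09200, whose window carries 2 octamers, stood at 146, 209, 144 and 45.5 RPKM in the same order. In both genes the controls were close together, narciclasine 2 h was the highest library and narciclasine 12 h the lowest. At 2 h AT5G65360 was 1.23-fold (1.15 to 1.31) and AT1G09200 1.40-fold (1.3 to 1.5) above control. At 12 h AT1G09200 was 3.27-fold lower (2.91 to 3.68), whereas AT5G65360, at 2.00-fold lower (1.83 to 2.19), only just met the threshold. Against control 2 h, AT5G65360 was 1.97-fold lower in narciclasine 12 h and missed it.

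The other 3 H3.1 genes were less abundant. AT5G10400 stood at 74.3, 123, 72.1 and 25.7 RPKM across control 2 h, narciclasine 2 h, control 12 h and narciclasine 12 h, and was 2.91-fold lower at 12 h (2.50 to 3.39). Its neighbour AT5G10390, 577 bases away on the same strand, stood at 22.7, 19.6, 20.8 and 4.44 RPKM. This gene was the furthest below control of the class at 12 h, 4.85-fold (3.49 to 6.87), and the only H3.1 gene not above control at 2 h, at 0.841-fold (0.692 to 1.02). AT3G27360 stood at 13.1, 28.3, 12.0 and 4.00 RPKM, the only H3.1 gene counted as higher at 2 h, at 2.10-fold (1.74 to 2.56), and 3.11-fold lower at 12 h (2.22 to 4.44). It overlaps AT3G27380 on the same strand by 328 bases, and that gene stood at 114, 116, 142 and 174 RPKM, moving the other way at 12 h. Over the class, median log2 ratios were 0.48 at 2 h and -1.64 at 12 h, and summed levels were 406, 570, 398 and 157 RPKM.

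H4, the partner of H3 in the nucleosome core, was spread more widely. All 8 genes stood above control at 2 h, between 1.31-fold and 1.78-fold, with none counted as higher. At 12 h 6 of 8 lay below control and 2 were counted as lower, with a class median log2 ratio of -0.53. The most abundant gene, AT3G53730, stood at 201, 347, 199 and 267 RPKM in control 2 h, narciclasine 2 h, control 12 h and narciclasine 12 h. It was above control at both times, 1.68-fold at 2 h (1.58 to 1.79) and 1.299-fold at 12 h (1.21 to 1.39), and its share of summed H4 levels went from 27.8% in control 12 h to 45.8% in narciclasine 12 h. The second, AT5G59690, whose window carries an octamer 71 bases before the gene start, stood at 135, 182, 144 and 69.9 RPKM and was 2.13-fold lower at 12 h (1.92 to 2.36). Against control 2 h it was 1.95-fold lower and missed the threshold.

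The H4 pair with nearly equal upstream windows did not change alike, a pair singled out after its values were seen. AT3G46320 stood at 43.3, 70.3, 43.9 and 12.98 RPKM, and AT3G45930 at 49.5, 89.5, 40.7 and 32.0. Levels of the 2 genes were similar in both controls and at 2 h, and differed in narciclasine 12 h. At 12 h AT3G46320 was 3.50-fold lower (2.77 to 4.45), the lowest ratio of the class, and AT3G45930 was 1.32-fold lower (1.11 to 1.57). Of the 50-base stretches of these genes, 27.9% in AT3G46320 and 25.7% in AT3G45930 also occur elsewhere in the genome, so reads no longer than that could not be told apart there. No source used here gives the read length or says how such reads were counted. The remaining H4 genes lay between 1.94-fold lower (AT5G59970) and 1.095-fold higher (AT1G07660, with an interval that held 1) at 12 h, with RPKM of 20.2 to 115 in control 12 h and 22.9 to 85.4 in narciclasine 12 h.

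All 3 genes of H3.3, the replacement form of H3, stood above control at both times. AT4G40040, with the highest control level, stood at 323, 382, 363 and 513 RPKM across control 2 h, narciclasine 2 h, control 12 h and narciclasine 12 h. AT5G10980 stood at 305, 518, 282 and 939 RPKM, the highest value of any of the 41 genes in any library. The ratio to control was 1.66-fold at 2 h (1.58 to 1.73) and 3.22-fold at 12 h (3.08 to 3.37) for AT5G10980, and 1.15-fold (1.11 to 1.2) and 1.37-fold (1.32 to 1.42) for AT4G40040. The third gene, AT4G40030, lies 42 bases from AT4G40040 on the same strand and was 1.21-fold and 1.12-fold above control, at 178, 220, 183 and 212 RPKM. The largest change was thus in 1 of the 3 genes, which supplied 34.1% of summed H3.3 levels in control 12 h and 56.4% in narciclasine 12 h.

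Every H3.1 gene lay below every H3.3 gene in its 12 h ratio, and the make-up of H3 transcripts shifted with it. H3.1 made up 33.5% of summed H3 RPKM in control 2 h, 33.7% in narciclasine 2 h, 32.5% in control 12 h and 8.61% in narciclasine 12 h. Counted as reads, the shares were 28.9% (28.1 to 29.7, Clopper-Pearson), 29.5% (28.8 to 30.1), 27.7% (26.9 to 28.6) and 7.42% (7.07 to 7.78). The 3 other libraries were alike and narciclasine 12 h stood apart. The ratio of summed H3.1 reads to control was 4.79-fold lower than that of H3.3 at 12 h (4.48 to 5.11), and 1.03 times it at 2 h (0.98 to 1.08). Against control 2 h, the same contrast for narciclasine 12 h was 5.07-fold (4.76 to 5.40). Between H3.1 and H4, both replication-linked, the 12 h ratio was 2.03-fold lower for H3.1 (1.89 to 2.19). With H3.1 and H4 taken as 13 genes and H3.3 with the variant H2A classes as 11, median log2 ratios at 12 h were -1.002 and -0.12, and 0.67 and 0.27 at 2 h. The second set was mixed, and its summed reads were 1.495-fold higher at 12 h (1.46 to 1.53), opposite in sign to its median, and a sum gives more weight to abundant genes such as AT5G10980.

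**Figure D3:**
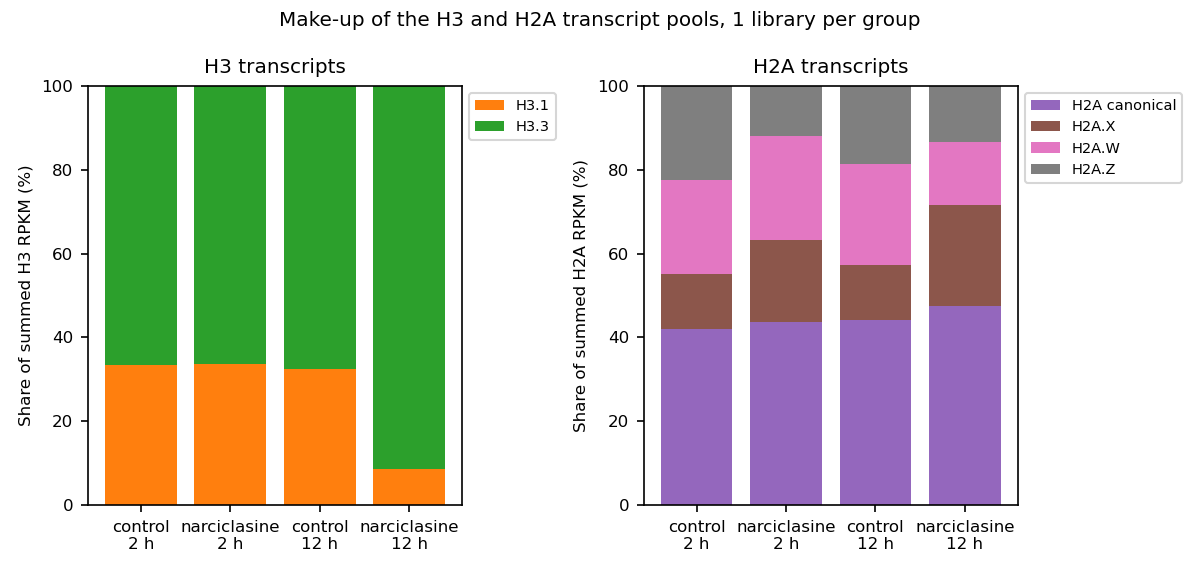
Share of summed RPKM (%, y axis) of each class within H3 transcripts (left) and H2A transcripts (right), 1 bar per library. The H3.1 share is 32.5 to 33.7% in 3 libraries and 8.61% in narciclasine 12 h, and H2A.X takes 24.1% of H2A levels there against 13.04% in control 12 h.

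H2B, the partner of H2A, stood above control in 10 of 10 genes at 2 h and was split at 12 h, with 6 above and 4 below and a median log2 ratio of 0.01. HTB4, the most abundant, stood at 258, 330, 249 and 346 RPKM in control 2 h, narciclasine 2 h, control 12 h and narciclasine 12 h, and HTB11 at 235, 312, 248 and 225 RPKM. HTB4 was above control at both times, 1.246-fold (1.19 to 1.31) and 1.34-fold (1.28 to 1.41). HTB11 was 1.29-fold above at 2 h (1.22 to 1.36) and slightly below at 12 h, 0.878-fold (0.826 to 0.932). The gene furthest below control at 12 h was HTB2, the H2B window with an E2F site, at 0.604-fold (0.547 to 0.667). H2B gene AT3G09480 was the only one counted, and it was low in all libraries, at 8.71, 22.2, 6.09 and 13.4 RPKM. It was 2.48-fold higher at 2 h (1.90 to 3.28) and 2.13-fold higher at 12 h (1.49 to 3.08), but 1.53-fold higher in narciclasine 12 h against control 2 h. Summed H2B levels were 1129 RPKM in control 2 h, 1665 in narciclasine 2 h, 1139 in control 12 h and 1163 in narciclasine 12 h.

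The 4 canonical H2A genes stood above control at 2 h, between 1.22-fold and 1.75-fold. HTA10, which supplied 50.1 to 60.6% of the class in each library, stood at 255, 317, 248 and 229 RPKM. HTA2 stood at 63.5, 102, 75.9 and 51.6 RPKM and was the furthest below control at 12 h, at 0.658-fold (0.584 to 0.740). RAT5, needed for Agrobacterium transformation of roots, went the other way, at 51.5, 92.5, 58.9 and 128 RPKM. It was 1.75-fold above control at 2 h (1.57 to 1.957) and 2.09-fold at 12 h (1.88 to 2.33), and 2.46-fold in narciclasine 12 h against control 2 h. The class median log2 ratio at 12 h was -0.12, while the mean was 0.06 and summed reads were 1.02-fold of control (0.976 to 1.07), so the class as a whole had no clear direction.

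Both H2A.X genes stood above control at both times. GAMMA-H2AX stood at 56.2 RPKM in control 2 h, 144 in narciclasine 2 h, 44.7 in control 12 h and 105 in narciclasine 12 h, and H2AXA (AT1G08880) at 75.8, 114, 82.8 and 127 RPKM. Each gene was higher in both narciclasine libraries than in either control. GAMMA-H2AX was 2.51-fold higher at 2 h (2.29 to 2.75) and 2.27-fold higher at 12 h (2.03 to 2.54), and 1.85-fold in narciclasine 12 h against control 2 h. H2AXA was 1.46-fold (1.32 to 1.62) and 1.48-fold (1.33 to 1.64) above control. GAMMA-H2AX overlaps AT1G54680 on the other strand by 259 bases, a gene at 1.22, 1.16, 1.39 and 1.84 RPKM. The H2A.X share of summed H2A levels was 13.2%, 19.5%, 13.04% and 24.1%.

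H2A.W, the heterochromatin variant, lay above control at 2 h and below it at 12 h in all 3 genes, although HTA12 at 2 h and HTA7 at 12 h had intervals that held 1. HTA6 stood at 132, 180, 125 and 42.6 RPKM in control 2 h, narciclasine 2 h, control 12 h and narciclasine 12 h, and HTA7 at 76.3, 129, 76.7 and 72.9 RPKM. At 12 h HTA6 was 3.04-fold lower (2.73 to 3.39), within the range of the H3.1 genes, whereas HTA7 was 0.918-fold of control (0.831 to 1.02). HTA6 supplied 53.1% of the class in control 12 h and 29.6% in narciclasine 12 h. HTA12 stood at 18.2, 21.9, 33.7 and 28.6 RPKM, and its direction turned with the control used, since narciclasine 2 h was 1.17-fold of control 2 h and 0.617-fold of control 12 h. Its gene overlaps H2B gene AT5G02570 on the other strand by 522 bases, and that gene was covered by 10 to 38 reads.

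H2A.Z was the one class below control at 2 h, and it was below control at 12 h as well. HTA9, the most abundant, stood at 157, 112, 127 and 113 RPKM, HTA11 at 46.8, 31.5, 41.3 and 6.51, and HTA8 at 20.06, 12.95, 13.7 and 10.01. In each gene both narciclasine libraries lay below both controls, although for HTA8 narciclasine 2 h was 0.901-fold of control 12 h with an interval that held 1 (0.691 to 1.18). At 2 h the ratios were 0.697 (0.649 to 0.749), 0.656 (0.566 to 0.759) and 0.630 (0.499 to 0.792), short of the threshold. Control 12 h was itself below control 2 h in all 3, at 0.699-fold to 0.906-fold. At 12 h HTA11 was 6.57-fold lower (5.03 to 8.69), the lowest ratio of all 41 genes, while HTA9 was 0.858-fold (0.793 to 0.928) and HTA8 0.708-fold of control (0.534 to 0.938). The class was thus uneven, and HTA9 supplied 69.8% of summed H2A.Z levels in control 12 h and 87.2% in narciclasine 12 h.

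The linker histones stood above control at both times in all 3 genes. H1 gene AT1G06760 stood at 215, 265, 276 and 367 RPKM in control 2 h, narciclasine 2 h, control 12 h and narciclasine 12 h, and H1 gene AT2G30620 at 127, 235, 128 and 246 RPKM. AT2G30620 was 1.80-fold (1.72 to 1.89) and 1.86-fold (1.77 to 1.959) above control, and AT1G06760 1.203-fold (1.15 to 1.26) and 1.29-fold (1.23 to 1.34). HIS1-3, the drought-inducible linker histone, was scarce, at 1.41, 2.49, 7.13 and 16.1 RPKM from 15, 26, 62 and 174 reads, and its 2 h interval held 1. It was 2.19-fold higher at 12 h (1.63 to 2.97), but control 12 h was itself 5.20-fold above control 2 h (2.92 to 9.83). HIS1-3 was the only one of the 41 genes counted as higher between the controls, where 4.33% of all genes were, and none was lower, where 1.69% were.

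The choice of control changed a few calls. Narciclasine 2 h against control 12 h gave 5 of 41 genes higher (6.44% of all genes) and 1 lower, HIS1-3 (5.84%), and the 3 genes higher against control 2 h were among the 5. Narciclasine 12 h against control 2 h gave 9 genes lower (16.9% of all genes) and 3 higher (12.4%). Of the members, 7 were lower in narciclasine 12 h against either control, namely 4 of 5 H3.1 genes, H4 gene AT3G46320, HTA6 and HTA11. The 3 higher against either control were H3.3 gene AT5G10980, RAT5 and HIS1-3. The shares of all genes that met the rule against both controls were not computed, so how unusual these counts are is not known. A total of 6 ratios that were short of the threshold against the control of the same time turned direction with the other control, those of HTA12, HIS1-3 and H1 gene AT1G06760 at 2 h and those of HTA12, HTB1 and H2B gene AT5G02570 at 12 h. Comparisons of one narciclasine library with both controls share that library, so they are not separate measurements of it.

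Set by the octamer, the 10 genes with it had a median log2 ratio of -0.58 at 12 h, with 5 counted as lower and none as higher. The 31 genes without it had a median of -0.12, with 4 lower and 5 higher. At 2 h the medians were 0.39 and 0.67. Over all genes compared, 16.6% were lower and 11.6% higher at 12 h, and the counts among the 31 genes are close to these shares. The split also follows class in part, since 3 of 5 H3.1 genes carried the octamer. All 5 H3.1 genes were lower with or without it, at log2 ratios of -1.71, -1.54 and -1.002 with it and -1.64 and -2.28 without it. The 2 H4 genes with it lay at 0.13 and -1.09, within the range of the other H4 genes, -1.81 to 0.38. In H2A.W and H1 the gene with it had the lowest ratio of its class. The part of the octamer in these ratios was not tested. The split was not clean, since HTA11, H4 gene AT3G46320 and H3.1 genes AT5G10390 and AT3G27360 were lower at 12 h with no octamer in these windows. H3.3 gene AT4G40040 and H1 gene AT1G06760 carried one and lay above control. H4 gene AT1G07660, HTA10 and HTA13 also carried it and were near control at 12 h, at log2 ratios of 0.13, -0.16 and -0.08.

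Histone chaperones, which carry histones to DNA, were for the most part above control at 12 h, but short of the threshold. Of 14 genes none was counted at 2 h (median log2 ratio 0.09), and at 12 h 10 lay above control, with a median of 0.68, while 3 were counted as lower, where 16.6% of all genes were, and none as higher. A count of 3 of 14 is close to that share. The 3 were FAS1 and FAS2, subunits of the CAF-1 complex that delivers H3.1 and H4 to new DNA, and TSK (TONSOKU), a protein known to bind H3.1 at replication forks. FAS1 stood at 7.87, 8.56, 6.45 and 2.66 RPKM in control 2 h, narciclasine 2 h, control 12 h and narciclasine 12 h and was 2.51-fold lower at 12 h (1.98 to 3.18). FAS2 was 2.57-fold lower (1.70 to 3.94) and TSK 2.20-fold lower (1.58 to 3.08). MSI1, which is also a CAF-1 subunit, went the other way at 12 h, at 1.92-fold above control (1.69 to 2.195), short of the threshold. HIRA, which deposits H3.3 and was picked after its values were seen, was not counted, at 5.48, 8.05, 5.68 and 9.72 RPKM. The 4 genes for H2A.Z deposition were above control at 12 h (median log2 ratio 0.58) with none counted, while H2A.Z transcripts lay below it.

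Of 8 further histone genes outside the 41, 4 passed the filter of 1 CPM in at least 1 library, and 2 were listed at 0 in every library. HTR12, which encodes the centromeric H3, stood at 6.15, 4.95, 5.74 and 2.36 RPKM and was 2.52-fold lower at 12 h (1.61 to 4.02), and HTR11 was 2.67-fold lower (1.61 to 4.55). AT1G75600 stood at 1.04, 2.38, 0.951 and 11.0 RPKM, from 8, 18, 6 and 86 reads, and was 11.2-fold higher at 12 h (4.93 to 31.3). AT1G13370 had 3 reads in control 2 h, 18 in narciclasine 2 h, 1 in control 12 h and 31 in narciclasine 12 h. It was counted as higher at both times, with wide intervals (1.74 to 31.7 at 2 h). AT1G75600 and AT1G13370 lay below 1 CPM in both controls and passed the filter only by narciclasine libraries, which favours calls of higher. Of the 4 genes compared, 2 were higher and 2 lower at 12 h, against 11.6% and 16.6% of all genes.

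Genes of the cell cycle were compared because H3.1 and H4 transcripts follow DNA synthesis. Of 14 DNA replication genes, none was counted at 2 h (median log2 ratio 0.11), and 7 were lower and 1 higher at 12 h (median -1.01). Over all genes compared, 4.75% were higher and 2.1% lower at 2 h, and 11.6% higher and 16.6% lower at 12 h. A count of 1 higher gene of 14 is near that share. PCNA1, the sliding clamp of the polymerase, stood at 25.3, 20.7, 19.9 and 5.70 RPKM and was 3.61-fold lower at 12 h (2.81 to 4.67). TSO2, a small subunit of ribonucleotide reductase, was 2.84-fold lower (2.41 to 3.35), PCNA2 2.78-fold (2.20 to 3.53) and PRL, the MCM7 helicase subunit, 2.66-fold (2.18 to 3.25). RNR2A, another small subunit, was the 1 higher gene, at 7.78 RPKM in control 12 h and 18.2 in narciclasine 12 h. Of 16 genes of the G2 to M transition, none was counted at 2 h (median log2 ratio -0.13) and all 16 were lower at 12 h (median -2.17). Ranked by the lower bound of the fold decrease, the first 4 of these genes were CDC20.1 (7.84-fold, 5.68 to 11.0), AUR2 (7.03-fold), CYC1BAT (5.83-fold) and PLE (5.77-fold). The 12 h median was thus lower for these genes than for H3.1 (-1.64), for replication genes (-1.01) and for H4 (-0.53). At 2 h the median was 0.59 over the 41 histone genes, 0.11 for replication genes and -0.13 for genes of the G2 to M transition. By the call rule, 3 of the 41 histone genes were counted at 2 h, and no gene of either cell cycle list was.

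**Figure D4:**
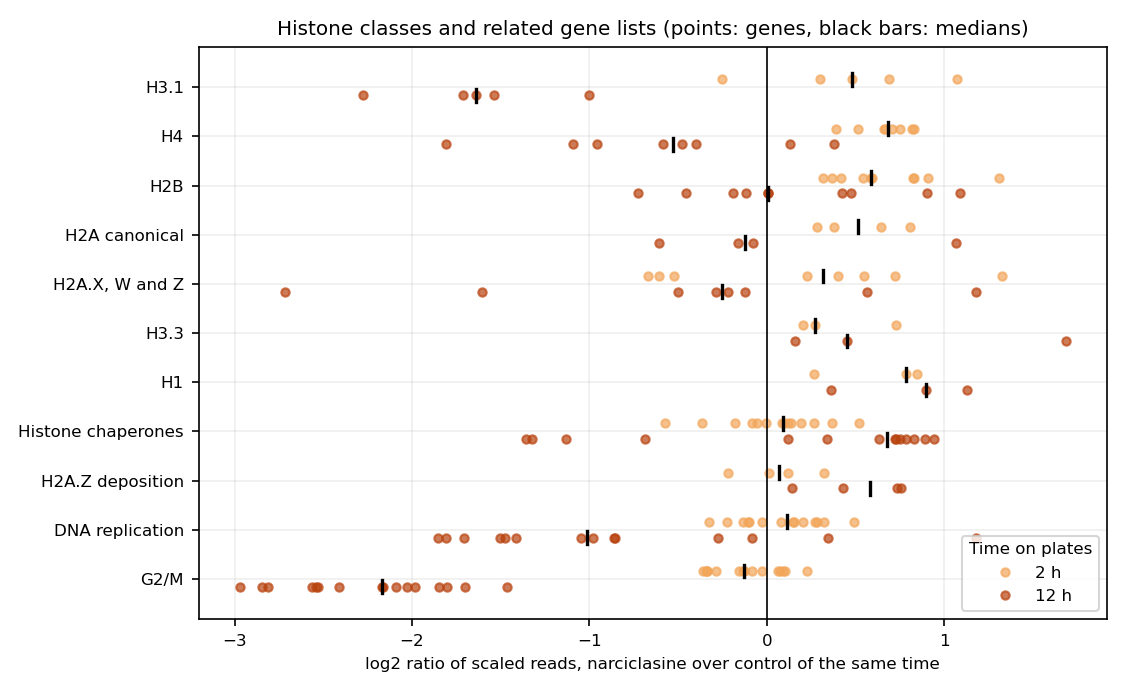
log2 ratio of scaled reads, narciclasine over control of the same time, for each gene (points) of the histone classes and of 4 related lists, at 2 h (light) and 12 h (dark), with black bars for medians. At 12 h H3.1, DNA replication and G2/M genes lie mostly to the left of 0, with medians of -1.64, -1.01 and -2.17, and H3.3 and H1 genes to the right.

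Markers of the zones that an excised tip can hold also differed between libraries, and their part in the histone results was not tested. The 6 stem cell niche and meristem markers summed to 82.1 RPKM in control 2 h and 97.5 in narciclasine 2 h. At 12 h they summed to 45.2 RPKM in control and 46.6 in narciclasine. Of these 6, 1 was higher (RGF1) and 1 lower (WOX5) at 2 h, and 1 higher (PLT2) and none lower at 12 h. Their median log2 ratio at 12 h was -0.40, with 4 of 6 below control and 2 above. From control 2 h to control 12 h, 3 of 6 were lower, against 1.69% of all genes, and none was higher. The 6 markers of root hairs and differentiation summed to 945, 900, 1048 and 474 RPKM, with none counted at 2 h and 4 of 6 lower at 12 h. The 4 root cap markers summed to 48.5, 39.1, 34.2 and 27.3 RPKM, none counted against the control of the same time. The 5 photosynthesis genes summed to 34.3, 22.9, 83.1 and 21.3 RPKM, with 1 of 5 lower at 2 h (CAB1) and 5 of 5 at 12 h. Their summed reads in control 12 h were themselves 2.56-fold above control 2 h (2.33 to 2.82). Against control 2 h, 3 of 5 were lower in narciclasine 12 h. Over all genes compared, 4.75% were higher and 2.1% lower at 2 h, and 11.6% higher and 16.6% lower at 12 h. No marker was at 0 in any library.

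Reads of some histone genes may be hard to assign, depending on read length and on how they were counted. Of the 41 genes 12 share at least one 50-base stretch with another place in the genome. The shares were 6.94 to 30.8% in 6 of 8 H4 genes and at most 2.12% in any other class. In the annotation 9 of the 41 genes overlap another protein-coding gene, and whether strand was used in counting is not given in the sources used here.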

How the data were processed

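RNA-seq libraries were made by standard Illumina protocols, per the labels' protocols, from total RNA of 4 groups with 1 library each. The deposited values are RPKM, which the authors computed per gene before deposit, per the file headers. Bowtie 0.12.2, edgeR and the build mm8 are named with no role, per the submitters' processing notes. That build is of the mouse and cannot be that of Arabidopsis locus codes, so the authors' build is unclear. The RefSeq TAIR10.1 annotation, which holds 32827 of the 33602 identifiers, gave symbols, overlaps, shared 50-base stretches and upstream sequence by locus code. Read length and counting rule: neither is given in the sources used here.

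Reads were recovered from the RPKM values. Library sizes followed from low genes with annotated lengths, and for each gene the smallest whole length that gave whole reads in every library, and held the coding sequence, was taken. This gave reads for 22816 genes, within 0.001 of a whole number, that summed to 99.8 to 99.9% of library size. The absolute reads of a gene can be wrong by a common factor, which changes the width of its interval and not its own ratio. In sums and shares of reads over several genes, such a factor would also change the weight of that gene. The length taken equalled an annotated length in 12.2% of recovered genes that are annotated. A further 1580 genes above 0 in 1 library were left out of the comparisons, and 9206 were at 0 throughout. Reads were scaled by the trimmed mean of M values (30% of log ratios and 5% of mean levels trimmed), and genes with 1 CPM in at least 1 library were kept. Ratios carry exact 95% Clopper-Pearson intervals. For ratios between classes the interval is a normal one. No interval covers more than counting error, since reads of one library need not come from separate molecules. With 1 library per group the difference at either time has no spread between replicates to be tested against, and no p-value is given. A fit of treatment plus time, with the difference between the times as its error, was not run. Other scalings, filters, thresholds, summaries, a pseudocount and the control of the other time were tried as alternatives. The call rule was not tested against a spread between replicates. The read recovery was not tested against read counts made by the authors.

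Members and lists were chosen with earlier results of these data known. Full values were given for the highest and second highest gene by control 2 h RPKM of each class, for genes counted in either narciclasine comparison and for the extremes of a class. Of other lists up to 4 counted genes were named by the interval bound nearest to 1, and others where a small count needed it. The motif and overlap searches were chosen after seeing the data. The tools were Python 3.11.15 with scipy 1.17.1, pandas 2.3.3 and numpy 2.4.6, and matplotlib 3.10.9 for figures.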

Additional observations from a re-analysis of the deposited data

Results flagged for a closer look

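Summed reads of 3 histone classes stood above control at 2 h and below it at 12 h. For H4 the ratio of narciclasine to control was 1.599 at 2 h and 0.7842 at 12 h, with 8 of 8 genes above control and then 6 of 8 below. H3.1 had ratios of 1.365 and 0.3856, with 4 of 5 genes above and then 5 of 5 below. H2A.W had ratios of 1.426 and 0.5944, with 3 of 3 genes above and then 3 of 3 below, of which HTA6 alone was past 2-fold. With 1 library per group and time, the difference between the times was not tested.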

How the results depend on the processing

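No paired analysis was possible because the groups compared at each time held 1 library each, so no replicate could be left out either. Taking the 2 times as pairs would use the difference between them as error, and was not run. Scaling by library size, by median of ratios or by upper quartile, no filter, a filter of 5 CPM and log2(RPKM + 1) kept each count of histone genes within 1.5 times its reported value and both medians (H3.1 with H4, and H3.3 with variant H2A) in their direction. The counts moved with the threshold. At 1.5-fold, 20 histone genes were higher and 2 lower at 2 h. At 4-fold, 0 were higher at 2 h, and 2 were lower and 0 higher at 12 h. With the whole interval required to lie beyond 2-fold, 1 was higher at 2 h and 2 were higher at 12 h. As a log2 ratio of summed reads, H3.1 and H4 at 12 h gave -0.68 and H3.3 with variant H2A gave 0.58, the latter opposite in sign to the median of -0.12, since a sum weights abundant genes more. Against the control of the other time, 68 of 82 ratios kept their direction and side of the threshold, 4 passed it in the same direction only then, 4 no longer did, and 6 turned direction, of which HIS1-3 at 2 h was then counted as lower. Genes with few reads, such as HIS1-3 (15 reads in control 2 h) and H2B gene AT5G02570 (10 reads in control 12 h), are limited by depth.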
